A study of Mus musculus with 3 samples.

Results

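The 9 genes described here carry out transport and metabolism in the proximal tubule, and they were picked by symbol from the 32285 genes of the files, with no threshold on a measured value. They are *Lrp2*, *Slc34a1*, *Slc5a12*, *Slc22a6*, *Slc27a2*, *Miox*, *Gpx3*, *Pck1* and *Kap*. They were followed in cells of the proximal tubule, in the other cells of the preparation and in the RNA found in nearly empty droplets. All 9 had unique molecular identifiers (UMIs, 1 for each captured RNA molecule) in proximal tubule cells of each library and passed the limit on low counts in each of the 4 comparisons in proximal tubule cells and in free RNA.

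The proximal tubule is the stretch of the nephron that follows the glomerulus, and it takes back most of the filtered water, salt, glucose, amino acids, phosphate and protein. Its cells burn fatty acids rather than glucose, make glucose during fasting, and secrete organic anions into the urine. The early part, S1, takes back most of the filtered glucose, and the late part, S3, differs from it in transporters and in its response to sex hormones. Transcription factors of the HNF1 and HNF4 families keep many proximal tubule genes on.

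Cells came from glomeruli that had been isolated from kidneys digested with collagenase V, so that tubule cells are a carried-over part of the preparation. There was 1 droplet library for each of 3 conditions: control mice, MRL/lpr mice left untreated, and a group of MRL/lpr mice that received mesenchymal stem cells of human umbilical cord (hUC-MSCs). MRL/lpr mice carry the lpr mutation of *Fas* and develop lupus nephritis, and in the study female mice entered the model group at about 16 weeks. Treated mice received 800000 cells each by tail vein, with libraries at day 21, and the strain of the control mice and the number of mice behind a library are not stated for this experiment. With 1 library per condition no test between conditions is possible. Levels below are UMIs per 1000000 UMIs of the cells named (CPM), with exact 95% Poisson intervals. Ratios carry exact 95% binomial intervals. Both kinds of interval cover counting error alone, not differences between mice or between the cells of a library.

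Total depth was 94903163 UMIs in control, 103319588 in untreated and 90812138 in treated MRL/lpr mice, and 11807, 19322 and 22165 barcodes with at least 500 UMIs and 200 genes were kept. Library pairs shared 60 to 109 kept barcodes, where 33.6 to 63.0 would be shared if barcodes were independent. *Fas* was at 167, 172 and 196 CPM in the control, untreated and treated libraries, so its level does not check the labels, while *Xist* was at 349 to 560 and *Ddx3y*, on the Y chromosome, at 1.08 to 1.58.

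The promoters are shown because some of them share a short sequence. RefSeq promoters of GRCm38.p6, from 250 bases before to 50 after the start, were at hand for 8 of the 9 genes, and *Slc5a12* had none. Both strands were searched for GTTAAT, which is one side of the palindrome bound by HNF1 factors. It was found in 4 of the 8 promoters and in 7.10% of all 32851 promoters of that length. The sequences run 5′ to 3′ on the strand of the gene, and capitals mark GTTAAT or its reverse complement ATTAAC.

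*Pck1*, chr2:173152823-173153122, plus strand: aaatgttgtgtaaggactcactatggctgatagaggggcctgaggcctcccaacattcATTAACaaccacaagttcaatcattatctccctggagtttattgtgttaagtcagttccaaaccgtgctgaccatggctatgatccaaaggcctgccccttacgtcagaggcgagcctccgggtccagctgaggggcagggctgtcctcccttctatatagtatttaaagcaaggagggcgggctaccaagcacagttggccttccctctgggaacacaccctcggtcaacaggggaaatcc
*Slc34a1*, chr13:55399398-55399697, plus strand: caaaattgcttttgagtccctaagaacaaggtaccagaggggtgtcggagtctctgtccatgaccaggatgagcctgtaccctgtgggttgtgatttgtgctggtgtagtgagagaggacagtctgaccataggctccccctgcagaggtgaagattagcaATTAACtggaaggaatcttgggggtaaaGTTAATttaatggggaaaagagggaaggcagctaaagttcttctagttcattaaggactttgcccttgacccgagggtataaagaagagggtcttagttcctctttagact
*Miox*, chr15:89334223-89334522, plus strand: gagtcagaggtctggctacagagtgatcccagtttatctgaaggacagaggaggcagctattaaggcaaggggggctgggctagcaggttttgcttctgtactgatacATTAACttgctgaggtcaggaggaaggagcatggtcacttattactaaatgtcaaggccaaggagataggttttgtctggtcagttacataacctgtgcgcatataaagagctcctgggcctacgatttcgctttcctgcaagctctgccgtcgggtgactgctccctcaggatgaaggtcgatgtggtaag
*Slc22a6*, chr19:8617746-8618045, plus strand: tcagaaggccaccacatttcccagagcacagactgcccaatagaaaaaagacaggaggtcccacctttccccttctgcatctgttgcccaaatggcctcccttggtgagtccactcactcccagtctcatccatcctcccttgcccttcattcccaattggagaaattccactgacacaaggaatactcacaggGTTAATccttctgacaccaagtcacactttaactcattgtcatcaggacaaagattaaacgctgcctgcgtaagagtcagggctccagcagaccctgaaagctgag

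The match begins 192 bases before the start in *Pck1*, 142 in *Miox* and 56 in *Slc22a6*. *Slc34a1* has a pair of matches, 89 and 61 bases before the start, on opposite strands. The longer HNF4 element CAAAGTCCA was in 0 of the 8 promoters and in 0.475% of all. The nuclear receptor element AGGTCA was in 2 of the 8, *Slc27a2* and *Miox*, and in 16.3% of all promoters. A match describes these letters in this window and shows no binding.

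Proximal tubule-like cells were the barcodes of 2 clusters named from 30 other proximal tubule markers, with the 9 genes left out of clustering and naming. There were 273 such cells in control, 1243 in untreated and 203 in treated mice, which is 2.31% (2.05 to 2.60), 6.43% (6.09 to 6.79) and 0.916% (0.795 to 1.05) of kept barcodes. With each library clustered alone, clusters of 179 and 152 barcodes in control, 900, 797 and 368 in untreated and 675 in treated mice took this name. The counts, and the order of control and treated mice, thus depend on the clustering, which these intervals do not cover. Of the 2 clusters used here, 1 was deep, with a median of 8211 UMIs, and was led by *Hao2*, *Cyp4a10* and *Rdh16f2*. The other was shallow, with a median of 1738 UMIs, and was led by *Aadat*, *Hnf4a* and *Slc5a2*. The 30 markers summed to 22379, 16001 and 13428 CPM in these cells against 1334, 1978 and 813 in free RNA. Mitochondrial genes took 22.9% of their UMIs in control, 10.8% in untreated and 14.0% in treated mice. Ratios under the study's limit on these genes are given below. For a scaling without them, only the shares of all genes past 2-fold are given for these cells, and no ratios of the 9. Such a scaling lowers each ratio of untreated over control, since control had the higher mitochondrial share. Median depth was 5779, 3552 and 4683 UMIs per cell. Markers of other cell types were also present: the 12 endothelial markers summed to 648, 924 and 844 CPM, against 10699, 10192 and 11407 in endothelial-like cells. Those of podocytes summed to 576, 640 and 161, and those of macrophages to 9.29, 268 and 342. The 10 markers of the loop of Henle and distal tubule were at 900, 215 and 148 CPM, against 805, 596 and 252 in free RNA, so that in control they lay above free RNA. The 14 mesangial markers were at 185, 289 and 656, and the 7 erythroid markers at 805, 2108 and 506. The part of these other cell types in the results was not tested.

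In these cells the 9 genes together stood at 19923 (19752 to 20096) CPM in control, 23504 (23394 to 23615) in untreated and 23054 (22802 to 23307) in treated mice. *Gpx3* made up most of each sum, with 10418, 14231 and 14999 CPM, so the sums mainly follow this gene. Of the 9 single ratios of untreated over control, 4 had intervals above 0 and 5 below. The median cell gave 2.06%, 2.05% and 2.15% of its UMIs to them, and the middle 50% of cells gave 1.34 to 2.72%, 1.37 to 2.91% and 1.52 to 3.05%. The median cell showed 7, 6 and 7 of the 9 genes, and in each library 0 cells lacked all of them.

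**Figure D1:**
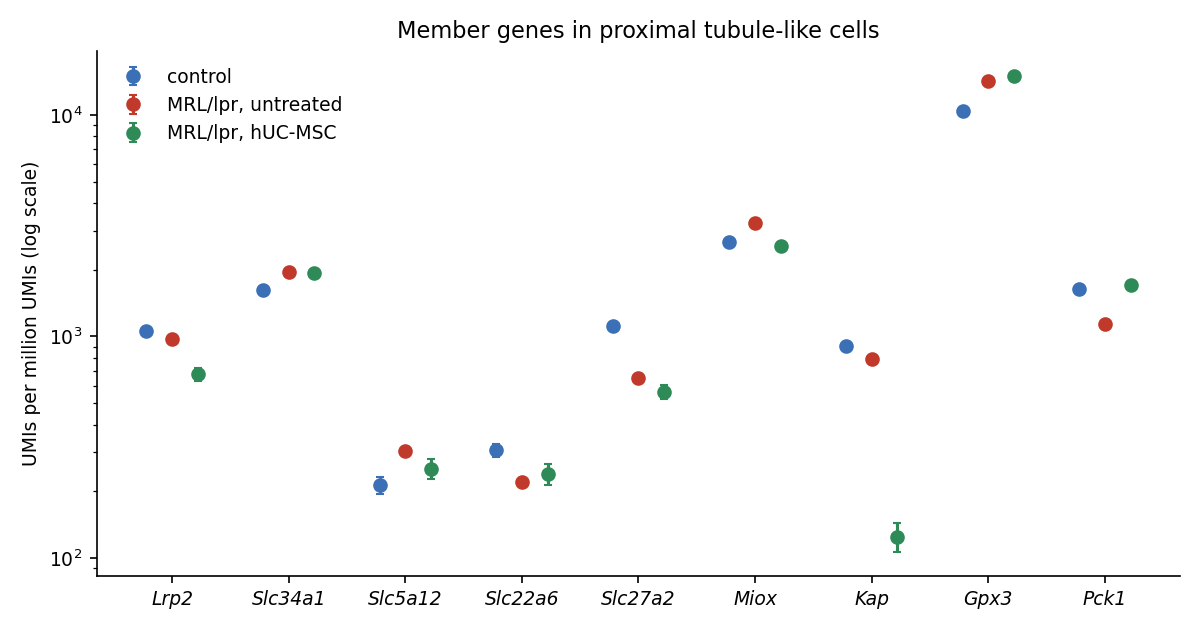
CPM (log scale) of the 9 genes in proximal tubule-like cells of the control, untreated MRL/lpr and treated MRL/lpr libraries. Points are summed levels, and bars are exact 95% Poisson intervals. Most genes lie close together across libraries, and *Kap* in treated mice, at 125, lies far below its other values of 903 and 791.

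*Lrp2* (chr2:69424340-69586065, minus strand, GRCm38) encodes megalin, the receptor with which the proximal tubule takes up filtered protein. It was at 1062 (1022 to 1102) CPM in control, 975 (953 to 998) in untreated and 674 (632 to 719) in treated mice. Its level was lowest in treated mice, with a log2 ratio of treated over untreated of -0.53 (-0.63 to -0.43). Untreated mice were close to control, with a log2 ratio of -0.12 (-0.19 to -0.06). Of its 5 partners in endocytosis, among them *Cubn* and *Dab2*, 0 were past 2-fold in either comparison. Of all genes, 17.1% were past 2-fold higher and 1.76% lower in untreated mice than in control, and 2.68% higher and 6.67% lower in treated than in untreated mice. *Dab2*, an adaptor of megalin, was at 511, 661 and 511 CPM, and *Cubn*, the co-receptor cubilin, at 212, 179 and 184.

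*Slc34a1* (chr13:55398187-55415592, plus strand) encodes the apical sodium and phosphate cotransporter. Its level was 1614 (1565 to 1664) in control, 1950 (1918 to 1982) in untreated and 1942 (1869 to 2017) in treated mice. The log2 ratio of untreated MRL/lpr over control was 0.27 (0.22 to 0.32), but it was -0.09 after the median of all genes was subtracted, so the direction depends on the scaling. The treated and untreated libraries differed by a log2 ratio of -0.01 (-0.07 to 0.05), with an interval that includes 0. Among the 7 listed genes of phosphate, sodium and sulfate transport, 0 were past 2-fold in either comparison.

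*Slc5a12* (chr2:110597298-110647779, plus strand) encodes a low-affinity sodium and lactate cotransporter of the apical membrane. It stood at 213 (195 to 231), 304 (292 to 317) and 253 (228 to 281) CPM in control, untreated and treated mice. The log2 ratio was 0.51 (0.38 to 0.65) for untreated MRL/lpr over control and -0.26 (-0.43 to -0.10) for treated over untreated. With the median of all genes subtracted the first was 0.15, and with the estimated free RNA subtracted it was 0.73. It was seen in 24.5%, 34.8% and 47.3% of cells, far fewer than showed *Slc34a1*. In the list of other transporters of glucose, amino acids and lactate, 5 of 12 were past 2-fold higher in untreated mice than in control and 1 was lower, beside 17.1% and 1.76% of all genes. *Slc5a2*, the sodium and glucose cotransporter of S1, was at 115, 302 and 289, and the monocarboxylate transporter *Slc16a1* at 12.8, 60.1 and 62.6. *Slc6a19* and *Slc7a8*, which carry neutral amino acids, had log2 ratios of 1.41 and 1.37, *Slc7a13* had 1.14 from 22 UMIs in all, and *Slc5a8*, a high-affinity lactate and monocarboxylate carrier, had -1.19. None of the 11 that could be compared was past 2-fold between treated and untreated mice.

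*Slc22a6* (chr19:8618039-8628299, plus strand) encodes OAT1, the basolateral carrier that takes organic anions from blood. Its level was 306 (285 to 328) in control, 219 (209 to 230) in untreated and 239 (214 to 266) in treated mice. Both MRL/lpr libraries were below control, and the log2 ratio of untreated over control was -0.48 (-0.60 to -0.36). The change from untreated to treated was 0.12 (-0.05 to 0.30). Of 11 tested organic ion carriers, *Slc22a13* and *Slc22a19* were past 2-fold lower in untreated mice than in control, at 30.9 against 77.8 and 16.9 against 60.8, and *Abcc4* was higher, at 46.5 against 11.2, beside 1.76% of all genes lower and 17.1% higher. *Slc22a13* and *Slc22a19* were both at 5.76 in treated mice, from 8 UMIs each. *Slc22a30* was at 0 UMIs in treated mice, from 34 in untreated, and completed the 3 carriers past 2-fold lower in treated than in untreated mice, beside 6.67% of all genes.

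*Slc27a2* (chr2:126552407-126588243, plus strand) encodes a fatty acid transport protein with acyl-CoA synthetase activity. It was at 1113 (1073 to 1155) in control, 651 (633 to 670) in untreated and 560 (522 to 601) in treated mice. This was the largest difference of the 9 between untreated MRL/lpr and control, with a log2 ratio of -0.77 (-0.84 to -0.71), and -1.13 with the median of all genes subtracted. The step from untreated to treated was -0.22 (-0.33 to -0.11). Of 12 genes of fatty acid oxidation, 0 were past 2-fold in either comparison, but 8 had intervals below 0 for treated over untreated, as did 12.6% of all genes, with a list median of -0.30 against -0.12 over all genes. *Acadm*, the medium-chain acyl-CoA dehydrogenase, was at 712, 485 and 264 CPM, and the peroxisomal thiolase *Acaa1b* at 1070, 756 and 529.

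*Miox* (chr15:89334398-89337015, plus strand) encodes the enzyme that breaks down myo-inositol in the kidney. It was at 2662 (2599 to 2726) in control, 3247 (3206 to 3288) in untreated and 2558 (2475 to 2644) in treated mice. Its log2 ratio of untreated over control was 0.29 (0.25 to 0.33), which turned to -0.07 with the median of all genes subtracted. Treated mice lay at -0.34 (-0.39 to -0.29) relative to untreated mice. In the list of 7 genes of amino acid and creatine metabolism, 1 was past 2-fold lower in untreated mice than in control, *Hpd* of tyrosine breakdown, at 375, 133 and 71.3, and 0 were past 2-fold between treated and untreated mice. *Ass1*, which makes argininosuccinate, was at 2342, 1847 and 1349, and *Gatm*, the first enzyme of creatine synthesis, at 983, 1670 and 1361.

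*Gpx3* (chr11:54902453-54910377, plus strand) encodes the secreted glutathione peroxidase that the kidney releases into plasma. Its level was 10418 (10294 to 10543) in control, 14231 (14145 to 14317) in untreated and 14999 (14796 to 15205) in treated mice. It was seen in at least 98.2% of proximal tubule-like cells of each library. Both MRL/lpr libraries were above control, with log2 ratios of 0.45 (0.43 to 0.47) for untreated over control and 0.08 (0.05 to 0.10) for treated over untreated. With the median of all genes subtracted, the first was 0.09, and with the estimated free RNA subtracted it was 0.64. In the list of 8 glutathione and selenoprotein genes, *Selenow* was past 2-fold higher in untreated mice, at 426 against 183 in control. *Gpx1*, the cytosolic peroxidase, was at 3346, 2040 and 2037.

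*Pck1* (chr2:173153048-173159273, plus strand) encodes the cytosolic phosphoenolpyruvate carboxykinase of gluconeogenesis. It was at 1633 (1584 to 1683) in control, 1135 (1111 to 1160) in untreated and 1702 (1634 to 1772) in treated mice. Treated mice were thus close to control and above untreated mice, with log2 ratios of -0.52 (-0.58 to -0.47) for untreated over control and 0.58 (0.52 to 0.65) for treated over untreated. Other genes of gluconeogenesis took other courses: *Fbp1* was at 1415, 1047 and 1002 and *G6pc* at 170, 244 and 266. Of the 5 in that list 0 were past 2-fold in either comparison.

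*Kap* (chr6:133849851-133853762, minus strand) encodes kidney androgen-regulated protein, which is best known from the late proximal tubule. Its level was 903 (867 to 940) in control, 791 (771 to 812) in untreated and 125 (107 to 145) in treated mice. These levels rest on very few cells. *Kap* was seen in 11 of 273 cells in control, 148 of 1243 in untreated and 2 of 203 in treated mice, and 1 control cell with 1062 UMIs held 45.5% of the control total. In treated mice all 173 UMIs came from 2 cells, with 118 and 55. The log2 ratio was -0.19 (-0.26 to -0.12) for untreated over control and -2.67 (-2.89 to -2.45) for treated over untreated. Because the Poisson interval treats molecules as independent, it understates the error of a level carried by 2 cells. As a share of cells thinned to 500 UMIs, *Kap* was seen in 2.20% (0.811 to 4.72), 5.47% (4.27 to 6.88) and 0.985% (0.120 to 3.51), and in endothelial-like cells, which should lack it, in 0.261%, 1.40% and 0.0368% at median depths of 4231, 3581 and 2753 UMIs. Of other genes known to rise with androgen, *Slco1a1* was at 0 UMIs in the proximal tubule-like cells of each library, which allows up to 1.16, 0.405 and 2.16 CPM by the limit of 3 counts. *Cyp4b1*, of the same list, was at 307, 404 and 350. The prolactin receptor *Prlr*, which is higher in female kidneys, was past 2-fold lower in untreated mice than in control, at 75.1 against 152, and *Slc7a12*, another female-biased gene, was past 2-fold lower in treated than in untreated mice, at 8.64 against 44.5.

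Across the 9 genes, 0 were past 2-fold higher and 0 past 2-fold lower in untreated MRL/lpr than in control, where 17.1% and 1.76% of the 12459 genes tested were. Those background shares became 12.3% and 2.81% without mitochondrial genes in the scaling. With the median of all genes subtracted they became 10.1% and 4.21%, and 1 of the 9, *Slc27a2* at -1.13, was past 2-fold lower. The median log2 ratio of the 9 was -0.12 beside 0.36 for all genes tested, and relative to that shift 7 of the 9 were negative. For treated over untreated mice, 0 of the 9 were past 2-fold higher and 1, *Kap*, was past 2-fold lower, where 2.68% and 6.67% of 12366 genes were. The medians were -0.22 for the 9 and -0.12 for all. Of 7 regulators of the proximal tubule 0 were past 2-fold in either comparison, with *Hnf4a* at 123, 167 and 113 and *Ppara* at 85.6, 114 and 104.

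Several of these directions depended on which cells were kept. Under the study's limits of 3000 genes and 10% mitochondrial UMIs, 53 control, 592 untreated and 48 treated cells were left. The study's limit on ribosomal genes and its removal of doublets were not applied in this setting. There the log2 ratio of untreated over control was 0.70 for *Lrp2*, 0.0769 (-0.18 to 0.35) for *Slc27a2*, 2.98 for *Kap*, -0.25 for *Miox* and -0.0972 for *Gpx3*, each opposite in sign to that of all cells. *Pck1* kept its sign with -0.96. For treated over untreated mice *Slc5a12* turned to 0.50 and *Slc22a6* to -1.21, and *Slc27a2* went to -1.22.

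Of genes that mark an injured tubule, 4 of 6 tested were past 2-fold higher in untreated mice than in control, beside the 17.1% of all genes, and 1 was lower. From markers of other cell types, free RNA was estimated to make up 5.10% of the UMIs of proximal tubule-like cells in control, 20.04% in untreated and 14.1% in treated mice, which sets a level that free RNA alone would bring. *Spp1*, osteopontin, was at 1068, 3110 and 6172 CPM, where free RNA would bring 11.7, 110 and 67.9. *Vcam1*, an adhesion molecule, was at 16.3, 67.7 and 120, where free RNA would bring 6.77, 45.1 and 36.9. *Cd44* was at 0, 11.3 and 33.8, where free RNA would bring 1.13, 11.8 and 14.6, and *Clu*, clusterin, at 6.19, 17.3 and 9.36, where it would bring 8.70, 17.0 and 11.4. The levels of *Cd44* in control and untreated mice and those of *Clu* are thus at or near this background and are not read as expression. For *Vcam1* in untreated mice the estimate is most of the level, so its ratio to control is not read as a change in these cells. *Havcr1*, a marker of acute tubule damage and the gene past 2-fold lower, was at 23.6, 6.88 and 5.76. Of 8 dissociation stress genes, *Egr1* was past 2-fold higher in untreated mice than in control, at 249 against 109, where free RNA would bring 150 and 31.4. *Atf3* was past 2-fold lower in treated than in untreated mice, at 142 against 497, where free RNA would bring 163 and 393. The part of dissociation in the results was not tested.

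The 9 genes differed along the tubule. Cells were split by whether S1 genes or S3 genes had more UMIs, using *Slc5a2*, *Slc2a2*, *Slc7a7*, *Slc7a8* and *Gatm* for S1 and *Slc7a13*, *Slc5a1*, *Cyp7b1*, *Slc6a18* and *Slc22a19* for S3, and neither list holds any of the 9. This gave 156 early and 68 late cells in control, 963 and 155 in untreated, and 169 and 19 in treated mice. Another 49, 125 and 15 cells had as many UMIs of 1 list as of the other and entered neither group. Some of the S1 and S3 genes, such as *Slc5a2*, *Gatm* and *Slc22a19*, themselves differed between the libraries. The split may therefore shift between libraries without a change of segment, which was not tested. *Slc5a12* was an early gene, at 321 in early and 17.96 in late cells of control and 359 and 10.99 in untreated mice. In treated mice it was at 281 in early cells and at 0 UMIs in late cells, so it was at least 11.9-fold higher in early cells. *Gpx3* was also higher in early cells in each library, with log2 ratios of late over early of -1.12, -1.64 and -1.25. *Miox* went the same way with -0.996, -0.41 and -0.20.

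*Slc27a2*, *Slc22a6*, *Lrp2* and *Kap* were higher in late cells of each library. *Slc27a2* was at 758 and 1853 in early and late cells of control, 479 and 1724 in untreated and 504 and 1045 in treated mice. *Slc22a6* had log2 ratios of late over early of 0.69, 0.93 and 1.44, and *Lrp2* of 0.48, 1.02 and 0.68. The largest difference was that of *Kap*, at 6.01 in early and 2921 in late cells of control and at 69.5 and 5481 in untreated mice. In treated mice early cells had 0 *Kap* UMIs and late cells 1359 CPM, at least 561-fold more by the limit of 3 counts. These folds are carried by few cells, since *Kap* was seen in 2 of 19 late cells in treated mice and in 5 of 68 in control. As a share of cells, *Kap* was seen in 7.35% (2.43 to 16.3) of late and 2.56% (0.703 to 6.43) of early cells in control, with intervals that overlap, and in 27.7% (20.9 to 35.5) and 8.72% (7.02 to 10.7) in untreated mice. *Slc34a1* was lower in late cells in both MRL/lpr libraries, with log2 ratios of late over early of -0.45 (-0.54 to -0.37) and -0.23 (-0.44 to -0.0261), and at -0.02 (-0.11 to 0.08) in control. The ratio of *Pck1* was -0.02 (-0.11 to 0.08), 0.47 (0.39 to 0.56) and -0.30 (-0.53 to -0.0840), with a sign that changed between libraries.

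**Figure D2:**
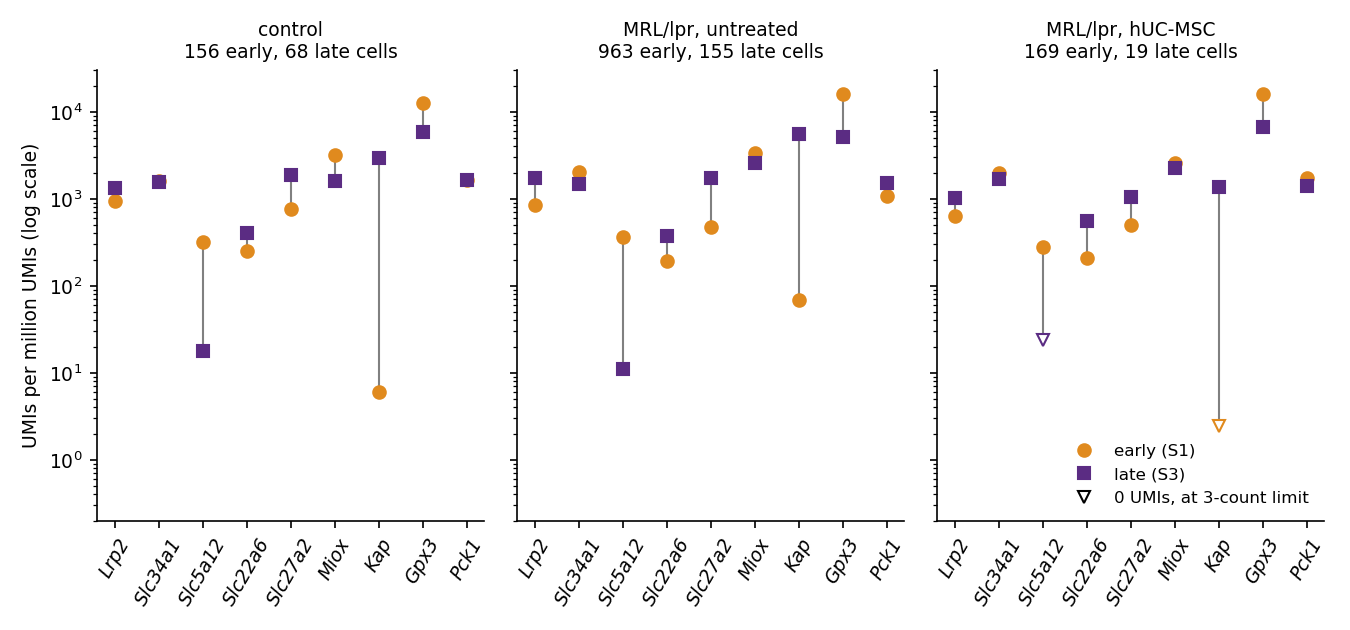
CPM (log scale) of the 9 genes in early (S1, circles) and late (S3, squares) proximal tubule-like cells, with 1 panel per library and the number of cells above it. Open triangles mark 0 UMIs and are drawn at the limit of 3 counts. *Slc5a12* is far higher in early cells and *Kap* far higher in late cells in each panel.

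Since this split called a smaller part of the proximal tubule-like cells late in MRL/lpr mice, the comparisons were repeated within each segment, an alternative chosen after seeing the data. The ratios within a segment carry the limit of the split given above. Within early cells *Slc27a2* had a log2 ratio of untreated over control of -0.66 (-0.76 to -0.57), and within late cells of -0.10 (-0.21 to -0.00069). *Lrp2* kept its sign in early cells, with -0.14 (-0.22 to -0.0609), and turned to 0.40 (0.29 to 0.51) in late cells. *Gpx3* was at 0.33 (0.31 to 0.35) in early cells and turned to -0.19 (-0.25 to -0.13) in late cells. The 0.51 of *Slc5a12* in all cells went to 0.16 (0.0224 to 0.30) in early cells and to -0.71 (-2.04 to 0.57), from 10 UMIs in untreated and 14 in control, in late cells. *Slc34a1* had 0.36 and -0.0825 (-0.20 to 0.0301), *Miox* 0.0842 and 0.67, and *Slc22a6* -0.36 and -0.13 (-0.36 to 0.0953) in early and late cells. For treated over untreated mice *Lrp2* was lower in both, with -0.42 (-0.53 to -0.31) and -0.76 (-1.03 to -0.50), while *Slc27a2* had 0.0735 (-0.0532 to 0.20) in early and -0.72 (-0.99 to -0.47) in late cells. *Pck1* in early cells was at 1642, 1081 and 1736 in control, untreated and treated mice, with the same course as in all cells, and in late cells at 1624, 1502 and 1406. *Kap* in early cells was 6.01 in control and 69.5 in untreated mice, a log2 ratio of 3.53 (2.64 to 4.603), and in late cells the ratio was 0.91 (0.84 to 0.98). Both are opposite in sign to the -0.19 of all cells together. At the free RNA shares given above, free RNA would bring 2.81 CPM of *Kap* to control and 22.7 to untreated early cells, or 4.48 and 46.5 if it is read from barcodes of over 100 and under 500 UMIs, so that much of the early level may be background and the ratio is not read as a change in these cells. Treated early cells had 0 *Kap* UMIs, at least 28.7-fold lower than untreated by the limit of 3 counts over the class, with an exact interval of the log2 ratio that reaches up to -4.54 and with the same background in the untreated level, and treated late cells lay at a log2 ratio of -2.01 (-2.24 to -1.79). Among late cells of untreated mice, *Kap* was seen in 43 of 155, or 27.7% (20.9 to 35.5). Among those of treated mice it was seen in 2 of 19, or 10.5% (1.30 to 33.1), with intervals that overlap.

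Free RNA was read from barcodes with 1 to 100 UMIs, which are too small to be cells. In the MRL/lpr libraries this range may miss most of the droplets that held free RNA alone, since the barcodes of over 100 and under 500 UMIs held 19476636 UMIs in untreated and 14194528 in treated mice against 2881360 and 3123588 in the barcodes of 1 to 100 UMIs. In control both ranges held about as much, 6471785 and 6434399. In barcodes of 1 to 100 UMIs the intervals of 9 of 9 genes lay above 0 for untreated MRL/lpr over control, as did 34.1% of all genes, and those of 9 of 9 lay below 0 for treated over untreated mice, as did 10.4% of all genes. The 9 together were at 2173 in control, 4124 in untreated and 1550 in treated mice, and *Gpx3*, given below, made up most of each sum. Past 2-fold were 2 of 9 higher and 0 lower for untreated over control, *Miox* with 1.00 (0.88 to 1.13) and *Kap* with 1.04 (0.81 to 1.26), where 14.1% of 13709 genes were higher and 5.69% lower. *Gpx3* in free RNA was at 1477 (1448 to 1507) in control, 2879 (2818 to 2942) in untreated and 1103 (1067 to 1141) in treated mice, and *Lrp2* at 91.1 (83.8 to 98.8), 141 (128 to 156) and 46.1 (38.9 to 54.3). With the median of all genes subtracted 0 of 9 were past 2-fold, and the shares of all genes were 10.8% and 7.97%. For treated over untreated mice 0 of 9 were past 2-fold higher and 8 of 9 lower, where 2.13% and 4.21% of 12897 genes were. *Kap* had the lowest value, with -2.44 (-2.85 to -2.05), and *Slc5a12* the highest, with -0.87 (-1.46 to -0.30). Median log2 ratios of the 9 were 0.93 and -1.38 for the 2 comparisons beside 0.22 and 0.04 for all genes.

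This depended on the size of the barcodes, as the summed level by size shows. In barcodes of 1 to 10 UMIs the 9 genes were at 1218 in control and 4542 in untreated mice, whereas in those of 11 to 100 UMIs they were at 3131 and 2907. In barcodes of 10 to 100 UMIs 8 of the 9 ratios of untreated over control were below 0, and *Slc5a12* and *Slc27a2* were past 2-fold lower, as were 11% of all genes there. In barcodes of over 100 and under 500 UMIs, read after seeing the data, the 9 were at 2685, 9197 and 2406. There 8 of 9 were past 2-fold higher in untreated mice than in control, where 20.3% of all genes were, and 9 of 9 past 2-fold lower in treated than in untreated mice, where 11.5% of all genes were. *Kap* had a log2 ratio of treated over untreated of -4.58 (-4.83 to -4.33) in these barcodes, below that of the other 8, which lay between -2.35 and -1.57. The untreated library had 74619 barcodes of that size, the treated 72746 and the control 42619.

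**Figure D3:**
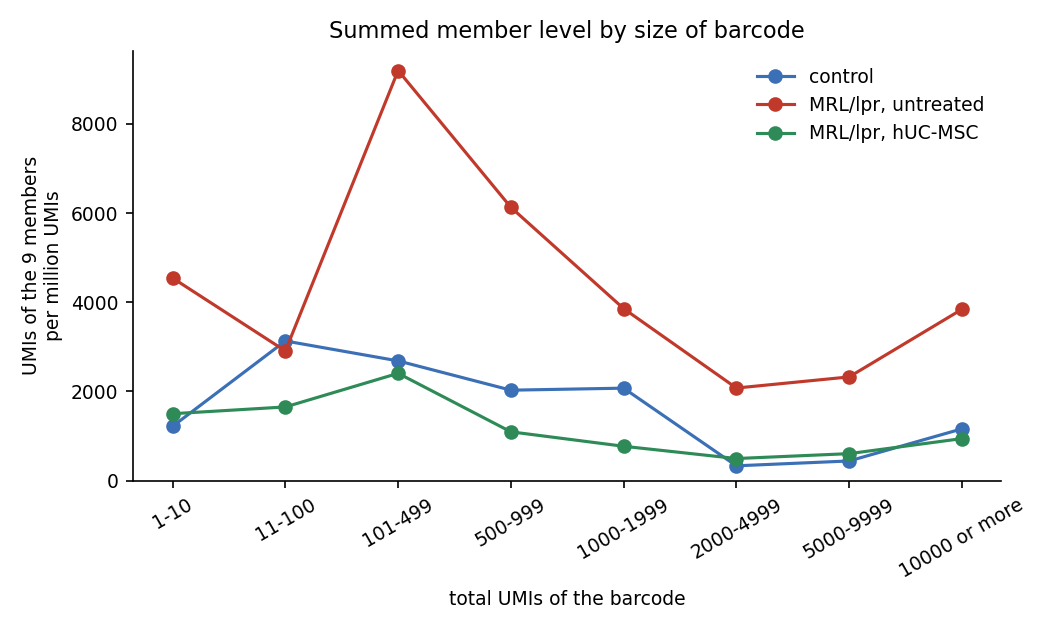
Summed level of the 9 genes (CPM) by the total UMIs of the barcodes, with 1 line per library. *Gpx3* makes up most of each sum. The untreated MRL/lpr library peaks at 9197 in barcodes of over 100 and under 500 UMIs and lies above both others in each size except 11 to 100, where control, at 3131, is highest.

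The places where the UMIs of the 9 genes were found differed between libraries. Proximal tubule-like cells held 56.1% of them in control, 40.3% in untreated and 35.2% in treated mice, from 2.72%, 7.18% and 1.53% of all UMIs. Barcodes of over 100 and under 500 UMIs held 19.0%, 41.5% and 37.6%, and the other named classes of cells held 8.08%, 11.1% and 13.0%. A cluster that was left without a name, with a median of 695 UMIs and mitochondrial genes in the lead, had proximal tubule markers as its best match. It held 75, 2787 and 283 barcodes, and the 9 genes took 0.447%, 0.578% and 0.587% of its UMIs, well below the 1.99%, 2.35% and 2.31% of proximal tubule-like cells.

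Other cell types showed how far these genes reach outside the tubule. In endothelial-like cells, the most abundant class of control glomeruli, the 9 genes together were at 80.4 in control, 635 in untreated and 157 in treated mice. All 9 were past 2-fold higher in untreated mice than in control, as were 11.1% of all genes, and past 2-fold lower in treated than in untreated mice, as were 4.49%. *Gpx3* was at 51.7, 459 and 123 in these cells and *Miox* at 7.62, 55.0 and 9.91. The make-up of this class by cluster differed between libraries. In control 1 cluster held 93.1% of it, but 12.3% in untreated and 3.03% in treated mice. A shallower one held 4.43%, 45.2% and 81.3%, and was the largest in both MRL/lpr libraries. Within the first the 9 together were at 75.2, 540.4 and 191, within the second at 164, 959.8 and 182, and within the remaining one at 188, 484 and 95.4, so untreated mice were highest in each. In that last cluster, with 150 control cells, 5 of 9 rather than all were past 2-fold higher in untreated mice than in control, as were 10.5% of all genes there, an analysis by cluster added after seeing the data. In podocyte-like and mesangial-like cells too, 9 of 9 were past 2-fold in each direction, with median log2 ratios of 2.51 and 3.49 for untreated over control and -2.06 and -2.61 for treated over untreated. Of all genes, 12% in podocyte-like and 12.8% in mesangial-like cells were past 2-fold higher in the first comparison, and 3.86% and 6.43% past 2-fold lower in the second. Podocyte-like cells were also split by depth, with 90.1%, 66.5% and 34.0% of them in the deeper of 2 clusters. There the 9 together were at 113, 539.99 and 121, and in the shallower one at 204, 1106 and 408. The medians of all genes in those classes lay between -0.03 and 0.10. Loop and distal tubule-like cells differed in the second comparison. There 7 of 7 genes tested were past 2-fold higher in untreated mice than in control, as were 20.2% of all genes, but 2 of 8 were past 2-fold lower in treated than in untreated mice, as were 5.86% of all genes. The 9 together had a log2 ratio of treated over untreated of 0.29 (0.18 to 0.41) in these cells, from 99 treated cells, but most of these UMIs were of *Gpx3*. The median of the 8 tested was -0.46, with 2 intervals above 0 and 3 below. *Gpx3* was at 0.47 (0.34 to 0.59) and *Slc34a1* at 0.55 (0.0893 to 0.998), while *Miox* was at -0.72 (-1.34 to -0.15) and *Pck1* at -3.64 (-6.70 to -1.74).

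**Figure D4:**
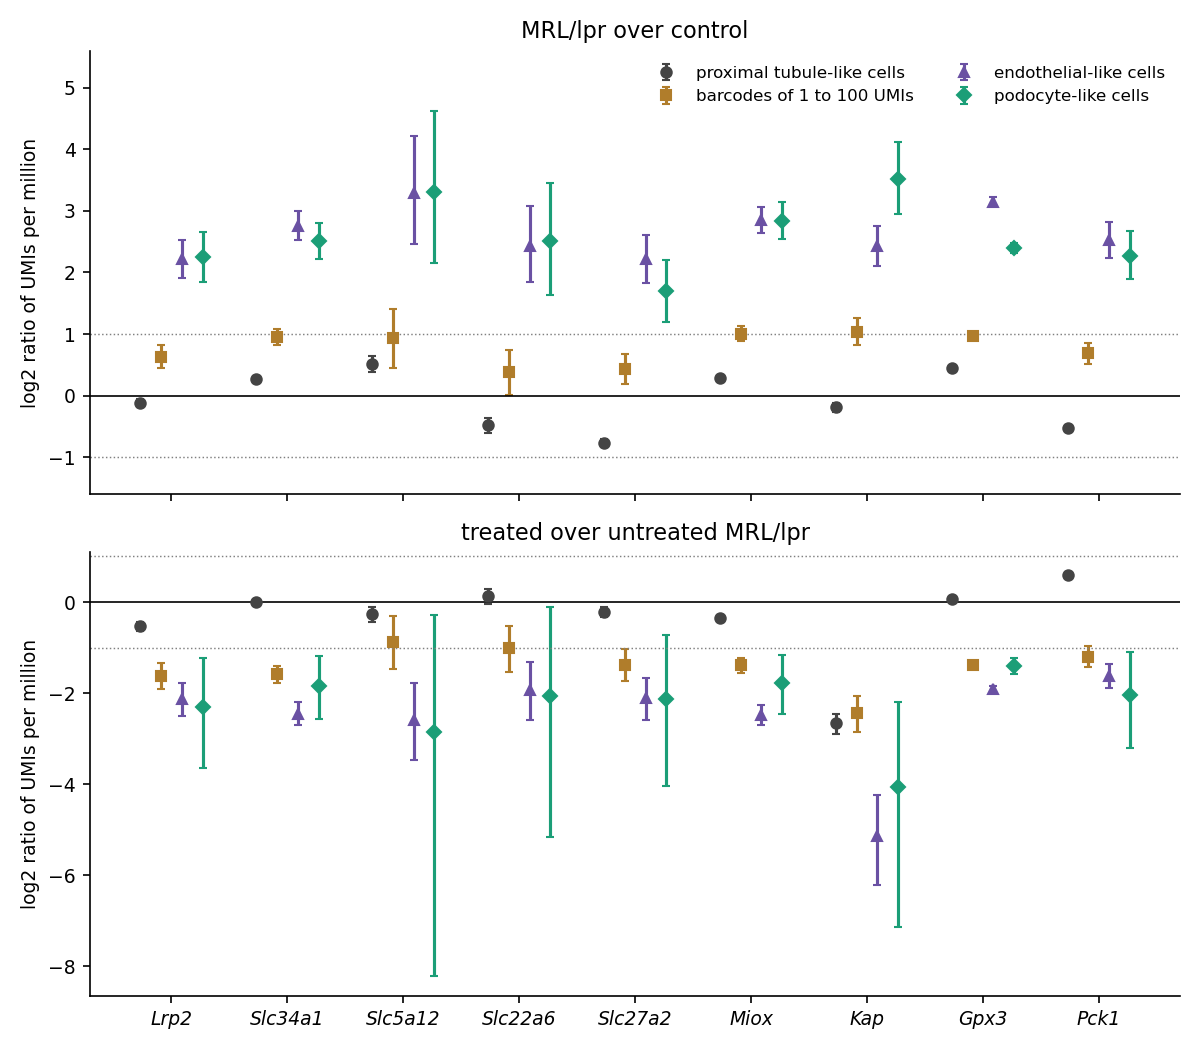
Log2 ratio of CPM for the 9 genes, for untreated MRL/lpr over control (top) and treated over untreated MRL/lpr (bottom), in 4 kinds of barcodes. Bars are exact 95% intervals, the solid line is no difference and dotted lines are 2-fold. Endothelial-like and podocyte-like cells lie past 2-fold for each gene in both panels, while proximal tubule-like cells lie within 2-fold except for *Kap* at -2.67.

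Set against free RNA of the same library, the levels outside the tubule were low. In endothelial-like cells the level of a gene was 0.0350 to 0.0588 of its level in free RNA in control, 0.126 to 0.179 in untreated and 0.0237 to 0.112 in treated mice. Proximal tubule-like cells had medians of 14.7, 6.91 and 17.9 times free RNA. Against barcodes of over 100 and under 500 UMIs the medians were 10.3, 3.41 and 13.3 in proximal tubule-like and 0.0303, 0.0692 and 0.0645 in endothelial-like cells. In the endothelial-like cells of a library the ratio was thus much alike from gene to gene, with *Kap* in treated mice, from 10 UMIs, as the lowest. These shares are what the files hold after all barcodes of a class were summed, and how much of the levels outside the tubule is free RNA was not tested.

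Some classes and some single genes left this band. In untreated mice the medians of the 9 were 0.267 in neutrophil-like, 0.233 in T and NK-like and 0.215 in loop and distal tubule-like cells, beside 0.152 in endothelial-like cells. *Gpx3* was at 0.220 of free RNA in collecting duct-like cells and 0.196 in loop and distal tubule-like cells of control mice, where the medians of the 9 were 0.0221 and 0.0312. In the 99 loop and distal tubule-like cells of treated mice most of the 9 lay above the range of endothelial-like cells, with a median of 0.320 and *Gpx3* highest at 0.966. *Kap* in mesangial-like cells of untreated mice was at 0.682 of free RNA, beside a median of 0.149, and 47 of the 2901 barcodes carried 10 or more *Kap* UMIs. Without those 47 the level of *Kap* in that class went from 77.1 to 28.0 CPM. In T and NK-like cells of the same library *Kap* was at 0.463 of free RNA, beside a median of 0.233, and without the 4 barcodes of 10 or more *Kap* UMIs its level there went from 52.3 to 21.02 CPM.

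**Figure D5:**
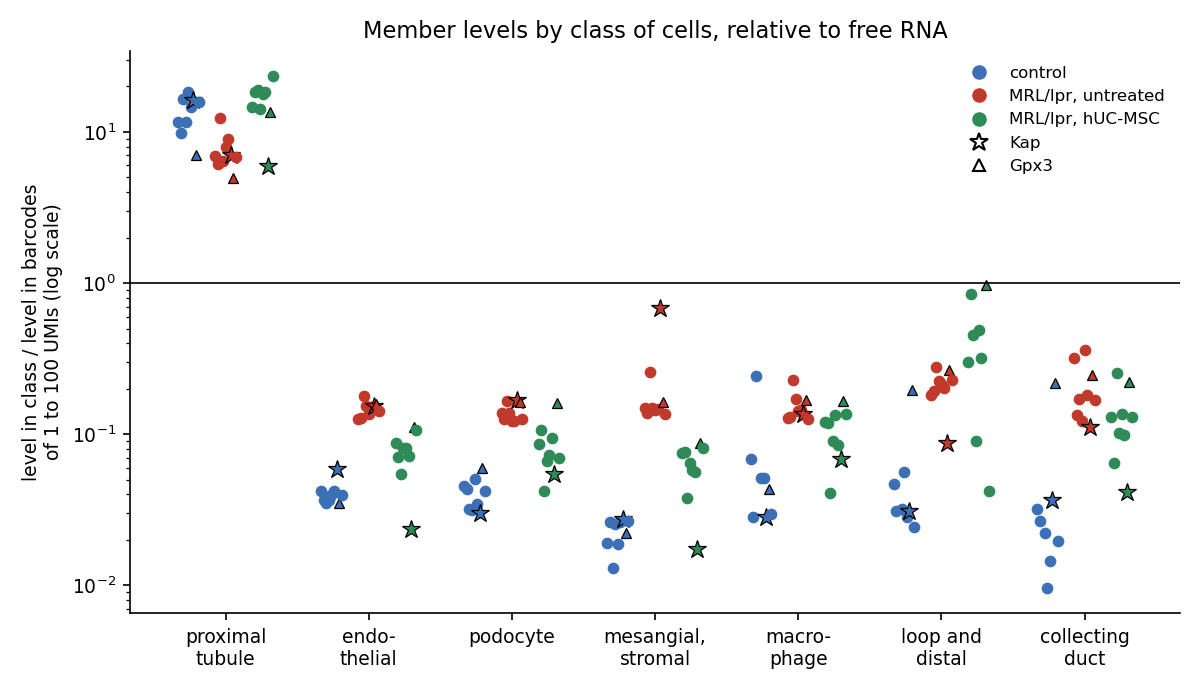
Level of each of the 9 genes in 7 classes of cells, divided by its level in barcodes of 1 to 100 UMIs of the same library (log scale), with 1 color per library, stars for *Kap* and triangles for *Gpx3*; genes with 0 UMIs are not drawn. Proximal tubule-like cells lie above 1 and other classes below it, with *Kap* in mesangial-like cells of untreated mice at 0.682 and *Gpx3* highest in the loop and collecting duct classes of control mice.

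The genes whose log2 levels followed the mean of the 9 most closely were taken over 31 groups, each a class of cells in a library with at least 50 cells. Among them were *Fbp1*, the fructose bisphosphatase of gluconeogenesis, with a Pearson correlation of 0.982, *Eci3* with 0.981, the sulfate carrier *Slc13a1* with 0.980 and *Glyat* with 0.978. Others were *Rdh16f2*, *Bdh2*, *G6pc*, *Tmem174* and *Apom*, down to 0.973. *Fbp1* and *Slc13a1* are among the 30 markers that named the proximal tubule clusters, so their pattern was partly set by the naming. The groups also share libraries and depth, and the 3 proximal tubule groups stand far above the rest, so the values only describe this pattern.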

How the data were processed

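Single-cell libraries of glomerular cells were analysed from the raw UMI counts that the authors deposited for each gene and barcode, before cell calling or scaling. The study's methods name Cell Ranger, with another version than the header of the files (Cell Ranger 4), and the submitters' processing notes add STAR and mm10. Of 32285 gene IDs, 32158 were found in GENCODE M21 (GRCm38), which gave the positions.

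Barcodes with at least 500 UMIs and 200 genes were kept (median 4904, 2866.5 and 2012 UMIs in control, untreated and treated mice). For clustering, each cell was set to 10000 UMIs before logs were taken. With 2000 variable genes, 10 principal components and 15 neighbours, Leiden clustering at resolution 1.0 gave 25 clusters, of which 4 stayed unnamed, using scanpy 1.11.5, igraph 0.11.9, numpy 2.4.6 and scipy 1.17.1 in Python 3.11.15. A cluster was named from at least 3 markers found in 10% of its cells and 2-fold higher than elsewhere. Doublets were not removed in the main analysis.

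Levels are UMIs summed over a class, per 1000000. Genes were compared where a pair of libraries held 20 UMIs or more, and called past 2-fold. A gene at 0 in 1 library counted as past 2-fold, with a bound from 3 counts over the class. Intervals were tested on simulated counts of independent molecules, a test that could not show error from differences between cells. The intervals cover counting error alone. Named genes are the 9, up to 3 of most UMIs in each of 13 lists, listed genes past 2-fold, the 10 of most similar pattern, and label checks. Leading genes of clusters were named by rank, and genes of *Kap*-rich mesangial-like barcodes after their values were seen. A gene that this rule names is not reported here. The genes and lists were chosen with earlier results of these data known. The study's limits on genes and mitochondrial UMIs, other cell calls, Scrublet scores, clusterings, scalings and subtraction of free RNA were tried as alternatives.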

Additional observations from a re-analysis of the deposited data

Results flagged for a closer look

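For untreated MRL/lpr over control, 5 genes moved in opposite directions in proximal tubule-like cells and in barcodes of 1 to 100 UMIs, with both intervals away from 0. The log2 ratios in cells and in free RNA were -0.12 and 0.63 for *Lrp2*, -0.48 and 0.38 for *Slc22a6*, -0.77 and 0.44 for *Slc27a2*, -0.19 and 1.04 for *Kap*, and -0.52 and 0.68 for *Pck1*. The direction in cells depended on which cells were counted for 3 of these 5. *Kap* had 3.53 in early, 0.91 in late and 3.48 in the shallow cluster of proximal tubule-like cells, the same direction as in free RNA, and 2.98 under the study's limits. Much of the early level of *Kap* may be background, as given above, so its 3.53 is not read as a change in these cells. *Lrp2* had 0.40 in late cells and 0.70 under those limits, and *Slc27a2* had 0.0769, with an interval that includes 0, under them. *Pck1* and *Slc22a6* stayed negative in each of these, although the interval of *Slc22a6* includes 0 in late cells and under those limits. For treated over untreated MRL/lpr the signs were also opposite for *Gpx3*, with 0.0759 in cells and -1.38 in free RNA, and for *Pck1*, with 0.58 and -1.20. The value of *Gpx3* in cells depended on the cells counted. It was 0.0048 (-0.017 to 0.027) in early cells, 0.39 in late cells and 0.0016 (-0.022 to 0.026) in the deep cluster. With each library clustered alone it was -0.29. *Pck1* had -0.095 (-0.33 to 0.13) in late cells. Both genes kept their sign in 14 of 15 alternatives. The difference between cells and free RNA was not tested, since each library is 1 sample. In barcodes of 10 to 100 UMIs the ratios of untreated over control of *Lrp2*, *Slc22a6*, *Slc27a2*, *Kap* and *Pck1* were negative as well, so within the range of 1 to 100 UMIs the positive ratios of these 5 came with barcodes below 10 UMIs.

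Barcodes of over 100 and under 500 UMIs enter no main comparison, and in the untreated library they held the 9 genes at 9197 CPM, against 2685 in control.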

How the results depend on the processing

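Counts of the 9 genes are followed here by the share of all genes called under the same setting. In proximal tubule-like cells, for untreated MRL/lpr over control, the 0 past 2-fold (18.8%) became 1 under the study's limits of 3000 genes and 10% mitochondrial UMIs, which left 53, 592 and 48 cells (*Kap*, 2.98; 33.6%). It became 1 with the median of all genes subtracted (*Slc27a2*, -1.13; 14.3%), 1 with the unnamed cluster added (*Slc27a2*, -1.07; 25.4%), 1 in early cells alone (*Kap*, 3.53; 18.03%), and 9 where an interval without 0 was the call (44.3%), 4 higher and 5 lower. For treated over untreated mice the 1 (9.35%) became 3 under the study's limits (*Kap*, *Slc22a6* and *Slc27a2*; 21.4%) and 7 by interval (18.3%). In free RNA, the 2 genes higher in untreated mice (19.8%) became 9 in barcodes of 1 to 20 UMIs (20.6%), 8 in those of over 100 and under 500 (23.4%), 9 by interval (47.6%), 0 without mitochondrial genes (18.8%) and 0 with the median subtracted (18.7%). In barcodes of 10 to 100 UMIs the direction reversed, with 2 lower (26.1%), and the 8 lower genes of treated over untreated (6.34%) became 0 (3.98%). The early cells, the unnamed cluster and the range of over 100 UMIs were added after seeing the data. Apart from the interval limits themselves, the cause was not tested. *Kap* stayed past 2-fold lower for treated over untreated in all 14 alternatives with a value (-3.64 to -1.59), and *Pck1* was negative for untreated over control in 15 of 15. The alternatives reuse the same libraries, and the treated level of *Kap* rests on 2 cells in the main analysis. Their agreement is therefore no independent support. *Lrp2* kept its sign for untreated over control in 12 of 15, with 0.70 under the study's limits.

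Counts of 9 genes from 1 library per condition limit all of this: intervals show counting error, and the shallowest groups, such as 19 late cells of treated mice, rest on few cells. No paired analysis was possible because each group is 1 library.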

Other observations

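The 47 mesangial-like barcodes of untreated MRL/lpr mice with 10 or more *Kap* UMIs were looked at after their values were seen. Of them 45 fell in 1 cluster, led by *Tagln*, *Acta2* and *Rgs5*, and their median depth was 1961 UMIs against 2932 for the other 2854. Besides *Kap*, at 5544 against 28.3 CPM, they had *Napsa*, an aspartic protease, at 1192 against 24.3 and *Aadat*, an aminoadipate aminotransferase, at 492 against 4.81. *Napsa* is 1 of the 30 markers used to name proximal tubule clusters, and *Aadat* led the shallow proximal tubule-like cluster. They also had the podocyte genes *Nphs1*, nephrin, at 361 against 16.5 and *Tcf21* at 123 against 5.91. *Slc27a2* was at 115 against 10.9 and *Lrp2* at 123 against 20.3, while *Miox* was at 69.2 against 53.2 and *Gpx3* at 677 against 466. No test was made, since the barcodes were chosen for their *Kap* and belong to 1 library.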
